A study of Mus musculus with 36 samples.

Results

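The neurotrophin system was followed through 7 genes in RNA from the anterior cingulate cortex (aCC) of 36 female mice, with 1 library per mouse. These were the ligand genes Bdnf and Ntf3, the receptor genes Ntrk2, Ntrk3, Ngfr and Sort1, and Vgf, which encodes a secreted peptide precursor that is induced by neurotrophins. The genes were chosen by name, as 7 of the 52636 genes in the table, with no threshold on their values. The genotypes were wild type (WT) and heterozygous for a targeted allele of Brd1 (Brd1+/-, strain label C57BL/6NTac-Brd1), a gene for a bromodomain protein of histone acetyltransferase complexes. The Brd1+/- mice had lost the exons between a pair of loxP sites on that allele in all of their cells, and all mice came from matched litters and were 8 to 11 weeks old. They received saline (vehicle) or the tricyclic antidepressant imipramine (IMN) at 10 mg/kg under the skin on consecutive days, and all of them, vehicle mice included, underwent tail suspension after the earlier injection, then an open field and forced swimming in the hours before brain removal. There were 8 WT vehicle, 10 WT IMN, 9 Brd1+/- vehicle and 9 Brd1+/- IMN libraries. The study asked how the genotype shapes gene expression and how it responds to IMN, and the comparisons here ask this of the neurotrophin genes.

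Neurotrophins are small secreted proteins that support the survival of neurons and the strength of their synapses. They are made as longer precursors. The mature forms bind Trk receptor kinases, BDNF preferring TrkB (the product of Ntrk2) and neurotrophin-3 preferring TrkC (the product of Ntrk3), while the precursors bind the p75 receptor (the product of Ngfr) together with sortilin (the product of Sort1). In the cortex, Bdnf is made mainly by excitatory neurons, and its transcription follows neuronal activity. Long courses of antidepressants have been linked to BDNF and TrkB signalling, and VGF peptides have been linked to antidepressant-like behaviour in rodents.

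Levels are given in TPM, which give the share of a gene among the transcripts of a library after allowing for transcript length. TPM keep no record of sequencing depth, and the study gives only a minimum number of reads per sample, so the exact depth of each library is unknown. The spread between mice holds both the error of measurement and the differences between mice. Differences are given on the log2(TPM + 0.5) scale, on which changes of weakly expressed genes come out too small, with standard errors and p-values from limma, a linear model fitted to all 25572 genes that had enough signal. All 7 genes passed that filter. The adjusted p-value corrects for all 25572 genes (Benjamini-Hochberg). Permutation p-values shuffle the mice for 1 gene at a time and carry no such correction. All tests were two-sided. In bulk tissue, fewer cells of a type and less RNA per cell cannot be told apart.

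The targeted gene went with the labels. With vehicle, the mean of Brd1 was 26.4 TPM ± 3.03 (SD, n = 8) for WT mice. It was 16.8 TPM ± 2.72 (SD, n = 9) for Brd1+/- mice. The difference was -0.64 (SE 0.095, exact permutation p = 8.23e-05) and the ranges did not overlap, but the adjusted limma p was 0.0620. Under IMN the means were 23.3 TPM for WT and 16.8 TPM for Brd1+/- mice, and the ranges overlapped. That difference was -0.45 (SE 0.091, exact permutation p = 0.000325), with an adjusted limma p of 0.882. The adjusted threshold thus missed the targeted gene, so a gene that misses it cannot be taken as unchanged. Cortical excitatory markers were present in every library (7 of 7 at a median of at least 1 TPM), and no defining marker of that list was at 0. The marker and activity scores set some libraries apart. Brd1+/- vehicle replicate 6 had the highest striatal marker score of all 36 libraries, and a choroid plexus score of 5.78 where the next highest was 0.85. WT vehicle replicate 1 had the third highest oligodendrocyte score and the second lowest score of immediate-early genes. Brd1+/- IMN replicate 6 went further in the same direction, with the lowest immediate-early score (4.68), the second highest oligodendrocyte score (8.21) and the lowest cortical excitatory and striatal scores of all 36 libraries. WT IMN replicate 7 had the highest oligodendrocyte score (8.32) and the second highest striatal score (3.86). The differences of Bdnf and Vgf without WT vehicle replicate 1 or either replicate 6 of the Brd1+/- groups stand beside the main values. With any single WT library left out, WT IMN replicate 7 among them, the IMN difference in WT mice ran from -0.77 to -0.48 for Bdnf and from -0.35 to -0.18 for Vgf.

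The 7 genes differed widely in level. Over the 36 libraries, the mean was 218 TPM for Vgf, 185 TPM for Sort1, 175 TPM for Ntrk2, 63.8 TPM for Ntrk3, 20.7 TPM for Bdnf, 1.38 TPM for Ntf3 and 0.288 TPM for Ngfr. The TrkB and TrkC genes thus stood above both of their ligand genes in the same tissue. Ntrk2 exceeded Ntrk3, Ntrk3 exceeded Bdnf, and Bdnf exceeded Ntf3 in 36 of 36 libraries, and Ntf3 exceeded Ngfr in 33. The top of the order was not separated: Vgf exceeded Sort1 in 29 libraries and Sort1 exceeded Ntrk2 in 25. The spread between mice also differed between genes. The coefficient of variation was 9.17% for Sort1, 14.7% for Ntrk2, 21.5% for Ntrk3, 22.6% for Vgf and 34.0% for Bdnf, and it reached 52.7% for Ngfr and 58.5% for Ntf3, the lowest genes.

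**Figure D1:**
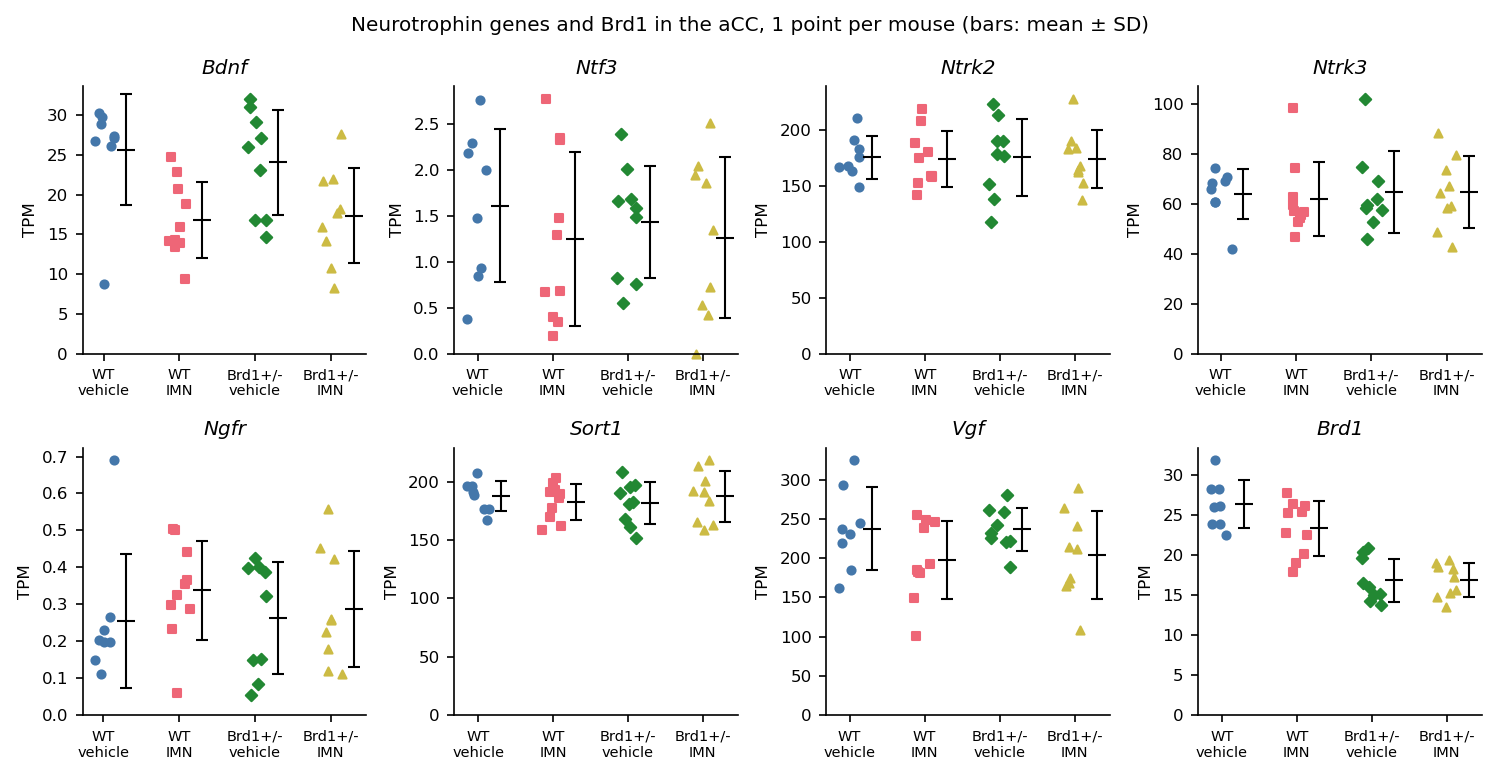
Level in TPM (y axis) of each of the 7 genes and of the targeted gene Brd1 in the 4 groups (x axis), with 1 point per mouse and the mean ± SD as a bar beside each group. Bdnf in WT vehicle lay between 26.2 and 30.3 TPM in all but 1 mouse, which was at 8.74 TPM, and the receptor genes had similar ranges in all groups.

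Bdnf, the gene of the main cortical ligand, was lower with IMN in both genotypes by the exact permutation test, though not after adjustment over all genes. In WT vehicle mice its level ran from 8.74 to 30.3 TPM with a median of 27.3, and in WT IMN mice from 9.38 to 24.8 TPM with a median of 15.1. The means were 25.7 TPM ± 7.00 (SD, n = 8) and 16.8 TPM ± 4.82 (SD, n = 10). The ranges overlapped through 1 low vehicle mouse, while 10 of 10 IMN mice lay below the vehicle median. The difference was -0.57 (SE 0.22, 95% CI -1.02 to -0.12), or 67.4% of vehicle, with an exact permutation p = 0.0283 over 43758 arrangements. Its limma p was 0.0164 and its adjusted p 0.667, so it did not pass over all genes. Without WT vehicle replicate 5 or 6 the exact permutation p was 0.0521 or 0.0512. Among the 7 genes, 0 passed the adjusted threshold of 0.05 in WT mice, where 0% of all genes did, and 1 (Bdnf) had an unadjusted p under 0.05, where 6.60% of all genes did.

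In Brd1+/- mice the values of Bdnf were close to those in WT mice. They ran from 14.6 to 32.1 TPM with a median of 26.0 in vehicle mice and from 8.29 to 27.6 TPM with a median of 17.7 in IMN mice. The ranges overlapped, with 8 of 9 IMN mice below the vehicle median and 3 below the lowest vehicle mouse. The means were 24.1 TPM ± 6.60 (SD, n = 9) and 17.4 TPM ± 5.97 (SD, n = 9), a difference of -0.49 (SE 0.21, 95% CI -0.92 to -0.06), with an exact permutation p = 0.0430 over 48620 arrangements and an adjusted p of 0.852 by limma. The exact p was near the threshold: it exceeded 0.05, at up to 0.0848, when any 1 of 10 libraries was left out (vehicle replicates 1, 2, 3, 4, 8 and 9 and IMN replicates 1, 4, 5 and 6), and it was 0.0522 without mitochondrial genes. Of the 7 genes, 0 passed the adjusted threshold in Brd1+/- mice (0.00782% of all genes did), and 1 had an unadjusted p under 0.05 (5.52% of all genes). The genotype by IMN interaction for Bdnf was 0.08 (SE 0.31, 95% CI -0.55 to 0.71), so its interval holds differences between the genotypes as large as the effect itself.

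With both genotypes in one fit, the difference of Bdnf was -0.53 (SE 0.15, 95% CI -0.84 to -0.22), or 69.3% of vehicle. Its unadjusted limma p of 0.00141 ranked it 266 of 25572 genes, with an adjusted p of 0.136, and the permutation p was 0.00249 (100000 draws within genotype). Here 0 of the 7 genes passed the adjusted threshold, where 0.274% of all genes did, and 2 (Bdnf and Vgf) had an unadjusted p under 0.05, where 9.38% of all genes did in either direction and 5.48% did in the lower direction. The balance of directions over all genes moved with the scaling: 998 were higher and 1401 lower as deposited, and 1398 higher and 1085 lower once mitochondrial genes were left out and the rest rescaled. Bdnf and Vgf stayed lower on that scale, at -0.51 (SE 0.16) and -0.25 (SE 0.11).

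The call for Bdnf turned on which libraries were kept. Without WT vehicle replicate 1, the remaining 7 WT vehicle mice lay between 26.2 and 30.3 TPM (28.1 ± 1.59, SD, n = 7), above all 10 WT IMN mice, a separation that 0.109% of all genes showed in the same libraries. The difference in WT mice was then -0.77 (SE 0.15) with an adjusted limma p of 0.0493, where 0.125% of all genes passed. In the pooled fit it was -0.62 (SE 0.13) with an adjusted p of 0.0178, where 0.665% passed. Weighting each library by its closeness to the rest of the fit, with none left out, gave -0.59 (SE 0.13) and an adjusted p of 0.0212 in the pooled fit, where 0.747% passed. WT vehicle replicate 1 was left out because its values stood apart, so the calls made without it rest on a choice that used the data. It also had the highest oligodendrocyte score of its group, so leaving it out widened the gap in that score between the WT groups. Leaving out Brd1+/- IMN replicate 6, which had the lowest Bdnf of all (8.29 TPM), moved the difference the other way, to -0.37 (SE 0.19; exact permutation p = 0.0848) in Brd1+/- mice and -0.47 (SE 0.15) in the pooled fit, with adjusted limma p-values of 0.923 and 0.220.

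The low Bdnf values went with a high content of oligodendrocyte transcripts. The score of 7 oligodendrocyte genes (the mean of their log2(TPM + 0.5), with Mbp and Mobp among them) had an r of -0.80 with Bdnf across the 36 libraries after the group means were removed, and r was -0.82 in WT vehicle, -0.74 in WT IMN, -0.75 in Brd1+/- vehicle and -0.87 in Brd1+/- IMN mice. WT vehicle replicate 1 had a score of 7.96, the highest of its group. The other WT vehicle mice ran from 4.04 to 6.53, and the WT IMN mice from 4.30 to 8.32. All 7 genes of the list had a median of at least 1 TPM and none was at 0 in any library. Their summed level ran from 171 to 2625 TPM in WT vehicle, 211 to 3230 in WT IMN, 218 to 1651 in Brd1+/- vehicle and 204 to 3161 in Brd1+/- IMN. The mean score was 0.60 higher in WT IMN than in WT vehicle and 0.15 higher in Brd1+/- IMN than in Brd1+/- vehicle. With this score and the striatal score as covariates, the difference of Bdnf was smaller and its error smaller too: -0.36 (SE 0.15) in WT mice, -0.40 (SE 0.13) in Brd1+/- mice and -0.38 (SE 0.10) in the pooled fit, with adjusted limma p-values of 0.730, 0.549 and 0.109. These scores were not added to the fits without WT vehicle replicate 1. Without Brd1+/- vehicle replicate 6, the library with striatal transcripts, Bdnf differed by -0.55 between the Brd1+/- groups (SE 0.21, exact permutation p = 0.0309), and by -0.56 (SE 0.15) in the pooled fit.

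**Figure D2:**
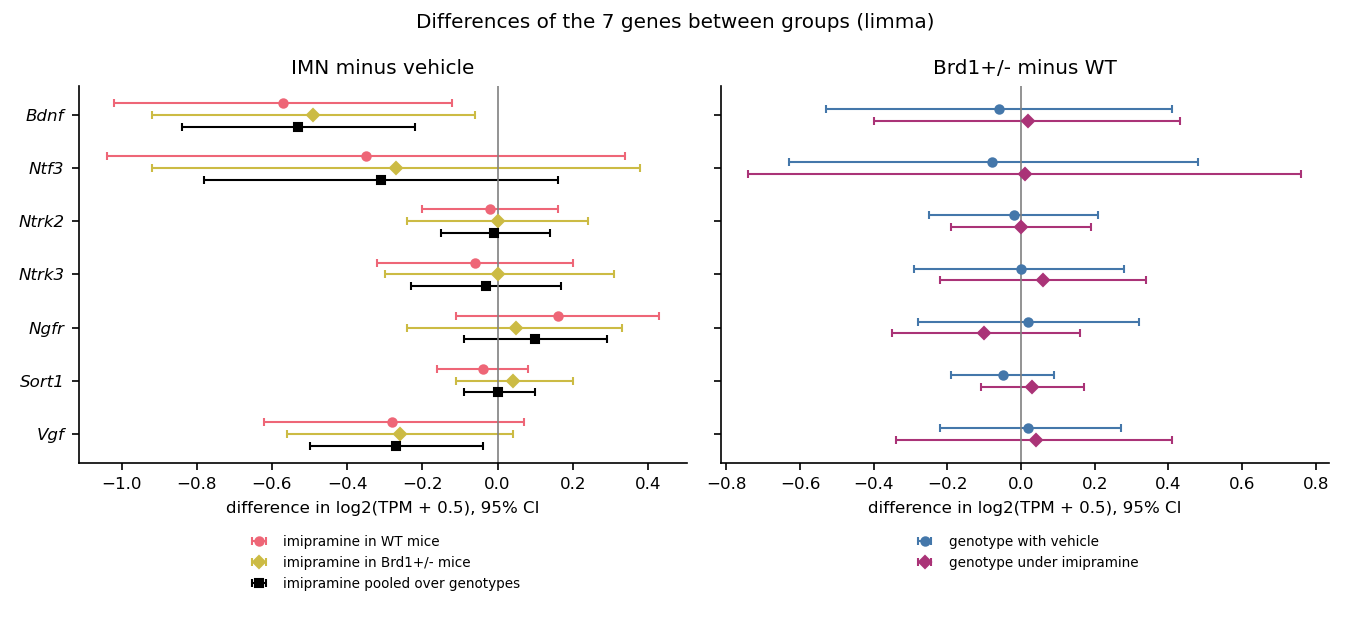
Difference in log2(TPM + 0.5) (x axis) of each of the 7 genes (y axis), IMN minus vehicle on the left and Brd1+/- minus WT on the right, with 95% confidence intervals from limma as bars. Bdnf lies below 0 in all 3 IMN comparisons and Vgf in the pooled one (-0.27), while every interval of the genotype comparisons spans 0.

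Bdnf (ENSMUSG00000048482) is a protein-coding gene of chromosome 2, plus strand, which spans 109674700 to 109727007 in GRCm38, with 11 annotated transcripts that begin at several promoters. The deposited value is 1 per gene, so the use of single promoters was not analysed here. An annotated antisense gene, Gm45346, overlaps its first part, at a mean of 0.182 TPM. Whether strand was used in the counting is not given in the sources used here. The promoter printed here, the 250 bases before a RefSeq start, is shown because 1 of the 7 Bdnf entries in the RefSeq promoter table held the letters TGACG, the short core of the cAMP response element to which CREB binds, on either strand, and this is that entry. The core begins 35 bases before the start. The capitals mark that site, which reads TGACG on the other strand.

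Bdnf, GRCm38.p6 chr2:109692186-109692435, plus strand: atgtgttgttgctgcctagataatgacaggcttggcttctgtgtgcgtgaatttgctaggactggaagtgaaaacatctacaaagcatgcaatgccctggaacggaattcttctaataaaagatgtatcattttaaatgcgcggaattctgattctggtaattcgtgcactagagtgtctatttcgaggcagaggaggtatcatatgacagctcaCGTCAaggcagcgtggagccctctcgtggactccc

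The short core is common: 20.8% of the 32851 promoter windows in that table hold it within 250 bases before to 50 bases after the start. The full palindrome TGACGTCA was found in 1.79% of all windows and in 0 of the 7 of Bdnf. The AP-1 letters TGANTCA, which bind FOS and JUN proteins, were found in 7.81% of all windows and in 1 of the 7, the one at 109676782 to 109677081. The EGR letters GCGNGGGCG were found in 5.55% of all windows and in 0 of the 7. Neither of the 2 windows of Ntf3, nor the windows of Ntrk2 and Ngfr (1 each), held any of these letters, searched on both strands, with the short core also counted inside the full palindrome. Vgf, Ntrk3 and Sort1 were not searched.

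Ntf3, the gene of neurotrophin-3 (chromosome 6, 126101412 to 126166910, minus strand), was a low gene with a wide spread. Its level ran from 0.371 to 2.77 TPM with a median of 1.74 in WT vehicle and from 0.191 to 2.78 TPM with a median of 0.991 in WT IMN mice. In Brd1+/- mice it ran from 0.555 to 2.39 TPM (median 1.58) with vehicle and from 0 to 2.51 TPM (median 1.35) with IMN, where 1 library was listed at 0. The ranges overlapped almost fully in both genotypes. The differences were -0.35 (SE 0.33; exact permutation p = 0.330) in WT and -0.27 (SE 0.31; exact permutation p = 0.439) in Brd1+/- mice. The pooled value was -0.31 (95% CI -0.78 to 0.16; permutation p = 0.206), so a change of the size seen for Bdnf lay within its interval. The estimate was unsteady: without Brd1+/- IMN replicate 4, the library listed at 0, it was -0.06 in Brd1+/- mice, single libraries moved it between -0.52 and -0.22 in WT mice, and a pseudocount of 0.1 in place of 0.5 gave -0.52 in the pooled fit. Its r with the oligodendrocyte score was -0.55, and with striatal and oligodendrocyte scores in the fit the pooled difference was -0.06 (SE 0.20).

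Vgf, whose product is stored in secretory granules and cut into several peptides, was the most abundant of the 7 genes and also lower with IMN on average. In WT mice it ran from 162 to 325 TPM (median 234) with vehicle and from 101 to 255 TPM (median 189) with IMN, and 2 IMN mice lay below the lowest vehicle mouse. In Brd1+/- mice it ran from 189 to 281 TPM (median 232) with vehicle and from 108 to 289 TPM (median 212) with IMN, where 4 IMN mice lay below the lowest vehicle mouse and 1 above the highest. The groups overlapped in both genotypes, and the IMN groups reached lower. The means were 237 TPM ± 52.9 (SD, n = 8) against 198 TPM ± 49.8 (SD, n = 10) in WT mice and 237 TPM ± 27.3 (SD, n = 9) against 204 TPM ± 56.2 (SD, n = 9) in Brd1+/- mice. The differences were -0.28 (SE 0.17; exact permutation p = 0.140) and -0.26 (SE 0.14; exact permutation p = 0.105). Neither of these permutation p-values was under 0.05. The pooled difference was -0.27 (SE 0.11, 95% CI -0.50 to -0.04), or 83.0% of vehicle, with an unadjusted limma p of 0.0214, a permutation p of 0.0256 and an adjusted limma p of 0.414. It did not pass over all genes, and adding the striatal and oligodendrocyte scores to the fit gave -0.17 (SE 0.11; limma p = 0.113). Without WT vehicle replicate 1 it was -0.35 (SE 0.16; exact permutation p = 0.0613) in WT mice and -0.30 (SE 0.11) in the pooled fit, with adjusted limma p-values of 0.464 and 0.247. Without Brd1+/- vehicle replicate 6 it was -0.24 (SE 0.15) in Brd1+/- mice and -0.26 (SE 0.11) in the pooled fit. Without Brd1+/- IMN replicate 6, the values were -0.15 (SE 0.11) and -0.22 (SE 0.10). Vgf is ENSMUSG00000037428, on chromosome 5 from 137026392 to 137033351, plus strand.

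No receptor gene had an exact permutation p under 0.05 for IMN in either genotype. Ntrk2 (chromosome 13, 58806569 to 59133970, plus strand) encodes full-length TrkB and a shorter form without the kinase, which the gene-level values add together. It had medians of 171 TPM (148 to 211) in WT vehicle, 166 (141 to 218) in WT IMN, 178 (118 to 223) in Brd1+/- vehicle and 168 (137 to 228) in Brd1+/- IMN. All 4 ranges overlapped, and the pooled difference with IMN was -0.01 (SE 0.072, 95% CI -0.15 to 0.14). That interval leaves out the point estimates for Bdnf and Vgf, but it overlaps the interval of Vgf, which reaches -0.04. Differences between genes were not tested. With striatal and oligodendrocyte scores in the fit the estimate was 0.09 (SE 0.058; limma p = 0.150), on the other side of 0.

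Ntrk3 (chromosome 7, 78175959 to 78738012, minus strand), the TrkC gene, had medians of 67.3 TPM (41.8 to 74.3) in WT vehicle, 57.2 (46.8 to 98.5) in WT IMN, 59.7 (45.8 to 102) in Brd1+/- vehicle and 64.6 (42.7 to 88.6) in Brd1+/- IMN. These ranges overlapped, and the pooled difference was -0.03 (SE 0.098, 95% CI -0.23 to 0.17). An antisense gene inside Ntrk3, Gm9885, had a mean of 4.08 TPM, so a small part of its reads may be shared. WT vehicle replicate 1 gave the lowest Ntrk3 value of its group, as it did for Bdnf.

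Ngfr (chromosome 11, 95568818 to 95587735, minus strand), the p75 gene, is known in the adult forebrain mainly from cholinergic neurons of the basal forebrain, whose bodies lie outside the cortex. It was above 0 in all 36 libraries but never above 0.690 TPM. Its medians were 0.200 TPM (0.112 to 0.690) in WT vehicle, 0.340 (0.0600 to 0.505) in WT IMN, 0.323 (0.0538 to 0.426) in Brd1+/- vehicle and 0.258 (0.112 to 0.558) in Brd1+/- IMN. The groups overlapped, and the pooled difference was 0.10 (SE 0.093, 95% CI -0.09 to 0.29). Without WT vehicle replicate 7, its highest mouse, the WT difference was 0.26 (SE 0.11; exact permutation p = 0.0226), with an adjusted limma p of 0.836. Of 4 cholinergic markers, 0 reached a median of 1 TPM.

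Sort1 (chromosome 3, 108284082 to 108361511, plus strand), the sortilin gene, was the steadiest member. Its medians were 190 TPM (167 to 207) in WT vehicle, 187 (159 to 203) in WT IMN, 182 (152 to 208) in Brd1+/- vehicle and 191 (158 to 218) in Brd1+/- IMN. All ranges overlapped. The pooled difference was 0.00 (SE 0.047), with a 95% CI of -0.09 to 0.10. This interval, too, leaves out the point estimates for Bdnf and Vgf but overlaps the interval of Vgf, which reaches -0.04.

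Between the genotypes, none of the 7 genes had an exact permutation p under 0.05 in either treatment. With vehicle, the differences of Brd1+/- from WT mice ran from -0.08 (Ntf3) to 0.02 (Vgf and Ngfr), the lowest unadjusted limma p was 0.458 (Sort1), and 0 of the 7 genes passed an adjusted or an unadjusted 0.05. Among all genes, 0% and 3.75% did, and the targeted gene Brd1 itself passed only the unadjusted threshold. Under IMN they ran from -0.10 (Ngfr) to 0.06 (Ntrk3), again with 0 of 7 at either threshold, where 0% and 3.23% of all genes passed. For the interaction, 0 of 7 passed at either threshold, where 0% and 3.20% of all genes did. The intervals show what these comparisons could miss: for Bdnf with vehicle the 95% CI was -0.53 to 0.41, and for Sort1 it was -0.19 to 0.09. Without WT vehicle replicate 1, the difference of Bdnf with vehicle was -0.27 (SE 0.15; exact permutation p = 0.131). The vehicle and IMN groups serve in several of these comparisons, so the comparisons are not independent of each other.

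Bdnf and Vgf followed the immediate-early genes from mouse to mouse. These are genes such as Fos, Egr1 and Arc that neurons switch on within minutes of activity. The score of 13 of them in WT mice was 6.01 ± 0.441 (SD, n = 8) under vehicle against 5.54 ± 0.266 (SD, n = 10) under IMN. In Brd1+/- mice the same score was 5.97 ± 0.238 (SD, n = 9) against 5.48 ± 0.389 (SD, n = 9). In the pooled fit 10 of the 13 had an unadjusted p under 0.05, all lower with IMN, where 5.48% of all genes were lower at that level. This list was chosen with earlier results of these data known, so the count is a description. Egr1 (-0.66, SE 0.13, adjusted limma p = 0.00939) and Arc (-0.67, SE 0.13, adjusted limma p = 0.0108) passed the adjusted threshold, where 0.274% of all genes did. Of the others, Fos (-0.36), Fosb (-0.63), Fosl2 (-0.42), Egr2 (-1.07), Egr3 (-0.83), Egr4 (-0.61) and Nr4a1 (-0.42) had unadjusted p-values under 0.01, and their adjusted limma p-values lay between 0.0580 and 0.166.

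Within groups, with the group means removed so that treatment and genotype could not set the relation, the r of Bdnf with this score over 36 libraries was 0.82 (permutation p = 1e-05, the smallest that 100000 permutations can give; Spearman's rho 0.64, permutation p = 8e-05). It was 0.91 in WT vehicle, 0.73 in WT IMN, 0.77 in Brd1+/- vehicle and 0.82 in Brd1+/- IMN. Leaving out the 2 libraries farthest from the median of the score, Brd1+/- IMN replicate 6 and WT vehicle replicate 1, gave 0.67. Of 17703 other genes that averaged 1 TPM or more, 12 had a higher r with the score. By Pearson r over all 36 libraries, Bdnf thus ranked among the genes that went most closely with the immediate-early genes. The rank was not taken by rho or without the 2 libraries.

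For Vgf, r was 0.70 (permutation p = 1e-05; rho 0.66, permutation p = 6e-05), with 0.79, 0.66, 0.48 and 0.80 in the same order of groups, 0.58 without the 2 libraries, and 172 genes above it. Ntrk3 (0.57, permutation p = 0.00075), Ntrk2 (0.49, permutation p = 0.00131) and Ntf3 (0.48, permutation p = 0.00546) went with the score less closely. Their rho was 0.59, 0.51 and 0.41 (permutation p = 0.00026, 0.00194 and 0.0175), and r was 0.42, 0.39 and 0.41 without the 2 libraries. Sort1 (0.27, permutation p = 0.115; rho 0.18, permutation p = 0.308) and Ngfr (-0.03, permutation p = 0.868; rho -0.03, permutation p = 0.886) gave permutation p-values above 0.05. These were 7 relations, and their p-values are unadjusted. The score itself had an r of -0.57 with the oligodendrocyte score. With the oligodendrocyte score also removed, a step added after the values were seen, r was 0.75 for Bdnf and 0.63 for Vgf (permutation p = 1e-05 and 0.00013). It was 0.33 for Ntrk3, 0.32 for Ntrk2 and 0.24 for Ntf3, with permutation p-values of 0.0548, 0.0528 and 0.187.

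**Figure D3:**
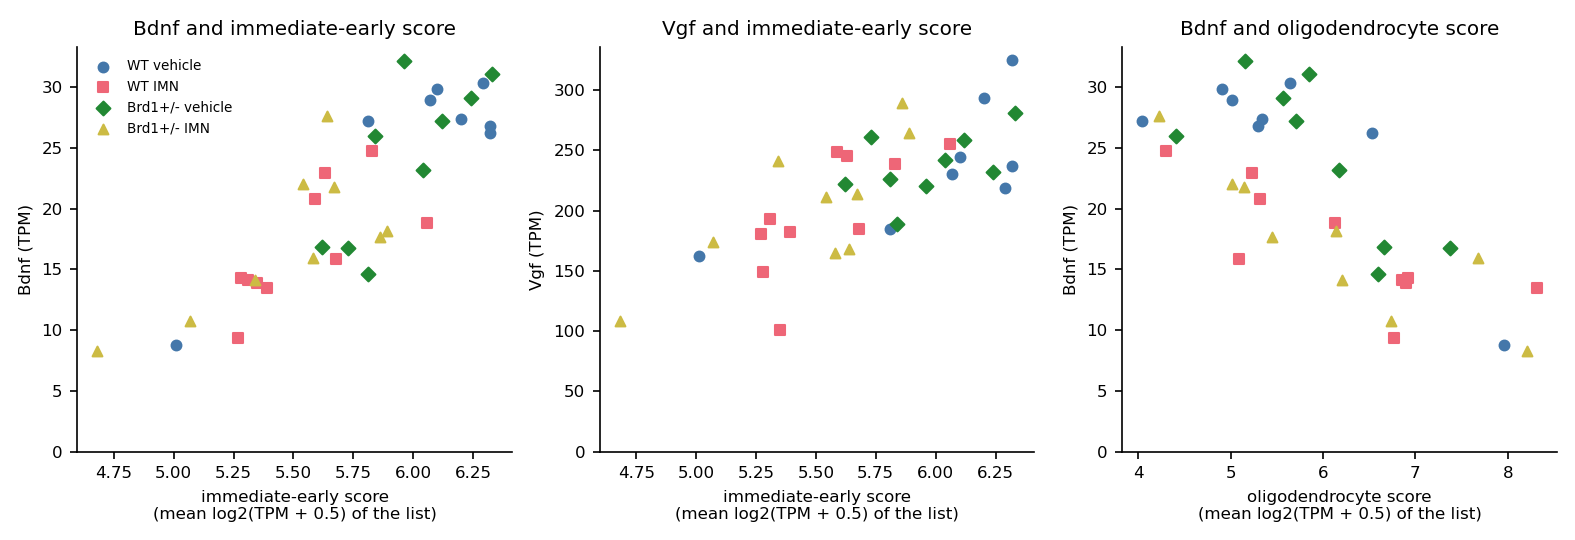
Bdnf and Vgf in TPM (y axes) against the immediate-early score (left and middle), and Bdnf against the oligodendrocyte score (right), each score being the mean log2(TPM + 0.5) of its list, with 1 point per mouse and 1 symbol per group. Bdnf was lowest (8.29 TPM) in the mouse with the lowest immediate-early score (4.68), and the mice with high oligodendrocyte scores lie low in Bdnf.

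The markers of other cells moved with these genes as well, and all of the following r are descriptions over 36 libraries that share the TPM scaling. Bdnf had an r of 0.51 with cortical excitatory markers (Slc17a7, Camk2a and others), -0.52 with interneuron markers and 0.59 with microglial markers. Ntf3 went with vascular and leptomeningeal (0.66), microglial (0.62) and astrocyte markers (0.52), and against interneuron markers (-0.67). Ntrk3 went with astrocyte markers (0.61) and with vascular and leptomeningeal markers (0.58), and against oligodendrocyte markers (-0.65). Ntrk2 stood between -0.49 and 0.51 for every list. Sort1 was closest to cortical excitatory markers (0.55), and Ngfr reached at most 0.41, with hippocampal granule markers. Vgf stayed within -0.39 and 0.40 for all 10 marker lists. Its r with oligodendrocyte markers was -0.35 in WT vehicle, -0.53 in WT IMN, 0.54 in Brd1+/- vehicle and -0.55 in Brd1+/- IMN mice. The covariate fit took this relation as the same in all groups. The score of cortical excitatory markers was 0.18 lower in WT IMN than in WT vehicle and 0.08 lower in Brd1+/- IMN than in Brd1+/- vehicle mice. The part of these cell types in the IMN differences was not tested beyond the covariate fit given above.

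**Figure D4:**
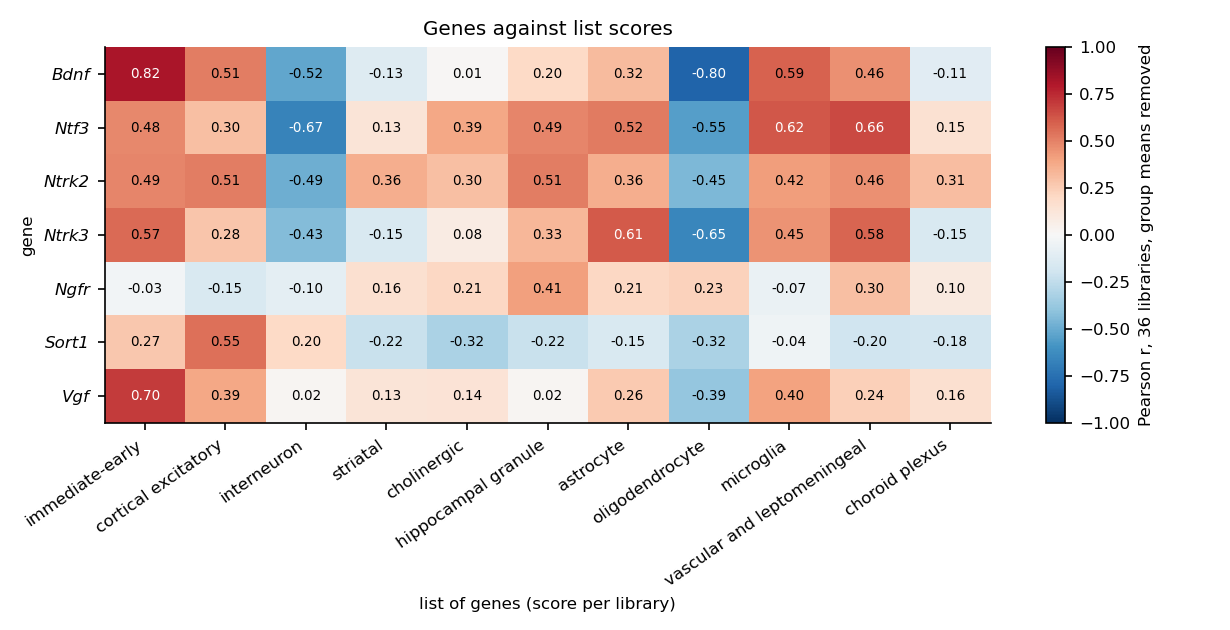
Pearson r (colour and printed value) of each of the 7 genes (rows) with the score of the immediate-early list and of 10 cell type marker lists (columns), over 36 libraries with group means removed. Bdnf has the strongest values in both directions, 0.82 with the immediate-early list and -0.80 with the oligodendrocyte list.

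Among themselves, the members were linked most closely through Bdnf. Bdnf had an r of 0.71 with Ntrk3, 0.68 with Ntf3, 0.60 with Ntrk2 and 0.49 with Vgf over the 36 libraries with group means removed. Ntrk2 and Ntrk3 had an r of 0.61. Bdnf, Ntrk3, Ntf3 and Ntrk2 also all went against the oligodendrocyte score (-0.80, -0.65, -0.55 and -0.45). The r between members were not taken with that score removed. Sort1 had an r of 0.36 with Vgf, 0.28 with Bdnf and with Ntrk2, and -0.19 with Ntf3. Sort1 and Ngfr went against each other (-0.42), and Ngfr had no r above 0.14 with any other member. The genes whose pattern was most like each member, among the 17716 genes that averaged 1 TPM or more, differed from member to member. For Bdnf they were Ptgs2 (0.93), which encodes the inducible cyclooxygenase, Aldh1a3 (0.92), an enzyme of retinoic acid synthesis, and Trpc6 (0.91), a cation channel. For Vgf they were Vps37b (0.78), Dgkz (0.74) and Mdga1 (0.74). For Ntf3 they were Slc30a10, Necab2 and Fmo1 (0.83 each). For Ntrk2 they were Fam120a (0.88), Amotl1 (0.88) and Ago2 (0.87), and for Ntrk3 Samd4 (0.81), Arhgap31 (0.80) and Rgl1 (0.80). For Sort1 they were Prkca (0.86), which encodes a protein kinase C, Nlk (0.84) and Ssx2ip (0.82). Ngfr, the gene closest to 0, reached only 0.61 with Smarcd2 and C130030K03Rik and 0.59 with Senp1.

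The wider pathway was read from 8 lists with 98 genes, of which 93 passed the filter. The lists were chosen with earlier results of these data known, so their shares beside those of all genes are descriptions and not a test of the pathway. In the pooled IMN comparison 2 of the 93 passed the adjusted threshold, both lower with IMN, where 0.274% of all genes passed. In the same fit 5 genes were higher and 11 lower at an unadjusted p under 0.05, or 17.2% of the 93, beside 9.38% of all genes. The median difference over the 93 genes was -0.033, beside -0.002 over all genes. In WT mice 2 were higher and 11 lower, or 14.0% beside 6.60% of all genes. In Brd1+/- mice 5 were higher and 4 lower, or 9.68% beside 5.52%. In neither genotype did any pass the adjusted threshold, where 0% of all genes did in WT and 0.00782% in Brd1+/- mice. At the unadjusted level, 2 genes were lower in Brd1+/- than in WT mice with vehicle (2.15%, beside 3.75% of all genes) and 0 differed under IMN (0%, beside 3.23%). The interaction was positive for 5 and negative for 1 (6.45%, beside 3.20%).

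The first of the 2 genes past the adjusted threshold was Npas4, an activity-induced transcription factor that binds Bdnf promoters. It averaged 37.6 TPM ± 15.2 in 17 vehicle mice and 18.5 TPM ± 4.90 in 19 IMN mice (SD), a pooled difference of -0.94 (SE 0.16, adjusted limma p = 0.00318). It was lower by itself in WT (-0.98, SE 0.24) and in Brd1+/- mice (-0.90, SE 0.20), with adjusted limma p-values of 0.395 and 0.488. The second was Nptx2, which encodes a secreted pentraxin of excitatory synapses and is itself an activity-regulated gene. It averaged 95.1 TPM ± 17.7 and 61.1 TPM ± 15.1 in the same mice, a difference of -0.66 (SE 0.11, adjusted limma p = 0.00279).

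None of the other 16 regulators of Bdnf transcription passed the adjusted threshold. Mef2c, a transcription factor of excitatory neurons, averaged higher with IMN in Brd1+/- mice (103 TPM ± 34.3 with vehicle and 228 TPM ± 77.5 with IMN, SD; difference 1.17, SE 0.26), with an adjusted limma p of 0.488. In WT mice its difference was -0.05 (SE 0.37), and the interaction was 1.22 (SE 0.47, unadjusted limma p = 0.0131, adjusted limma p = 1.00).

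Among the enzymes that cut proneurotrophins, the convertase genes Pcsk1 and Furin were lower with IMN before adjustment. Pcsk1, whose product also cuts VGF, averaged 44.5 TPM ± 8.06 in vehicle mice and 35.8 TPM ± 3.51 in IMN mice (SD, n = 17 and 19; -0.29, SE 0.073, adjusted limma p = 0.0696). Furin averaged 23.5 TPM ± 3.31 (SD, n = 17) and 19.6 TPM ± 3.67 (SD, n = 19), a difference of -0.28 (SE 0.078, adjusted limma p = 0.124). Of the 12 genes in that list, 10 were tested, 0 were higher and 2 lower at an unadjusted p under 0.05 in the pooled fit, where 5.48% of all genes were lower. Plat, the gene of tissue plasminogen activator, which starts the cleavage of proBDNF through plasmin, averaged 25.3 TPM ± 3.39 (SD, n = 8) under vehicle in WT mice and 20.1 TPM ± 1.55 (SD, n = 9) in Brd1+/- mice. That difference was -0.32 (SE 0.080) and the interaction 0.34 (SE 0.12), each with an adjusted limma p of 1.00.

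The other ligands and receptors gave little. Ntf5, the gene of neurotrophin-4, averaged 0.240 TPM over the 36 libraries and had a pooled difference of -0.05 (SE 0.12, adjusted limma p = 0.950). Rtn4r and Lingo1, which encode partners of p75 in the receptor for myelin inhibitors, were lower with IMN before adjustment (-0.24, SE 0.071, and -0.21, SE 0.069, with adjusted limma p-values of 0.154 and 0.226). Of 16 adaptors of Trk receptors, Irs2 had a pooled difference of -0.33 (SE 0.10, adjusted limma p = 0.195). Of 21 kinase genes downstream, Mapk3, the ERK1 gene, had -0.37 (SE 0.13, adjusted limma p = 0.312), and Mapk7 had -0.33 (SE 0.11, adjusted limma p = 0.609) in WT and 0.00 (SE 0.098) in Brd1+/- mice. Nras had -0.44 (SE 0.19) in WT and 0.34 (SE 0.15) in Brd1+/- mice, an interaction of 0.78 (SE 0.25, adjusted limma p = 1.00). Of the peptide and granule genes grouped with Vgf, Tac1 averaged higher with IMN in WT mice (0.81, SE 0.23, adjusted limma p = 0.486) and lower in Brd1+/- mice (-0.32, SE 0.41), with an interaction of -1.13 (SE 0.49, unadjusted limma p = 0.0276, adjusted limma p = 1.00). Vegfa, among growth factors linked to antidepressants, had a pooled difference of 0.13 (SE 0.048, adjusted limma p = 0.301).

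**Figure D5:**
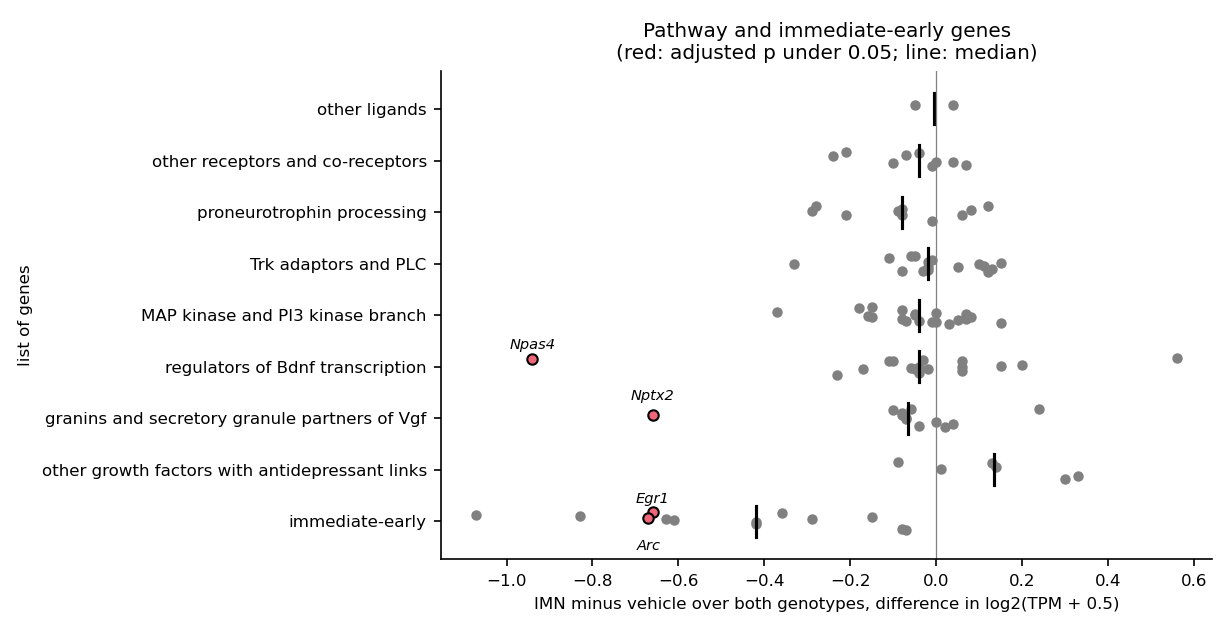
Pooled difference of IMN minus vehicle in log2(TPM + 0.5) (x axis) of each tested gene of the 8 pathway lists and of the immediate-early list (y axis), with 1 point per gene, the list median as a line and genes with an adjusted p under 0.05 in red. The pathway lists centre near 0, with Npas4 (-0.94) and Nptx2 (-0.66) past the threshold, while the immediate-early list has a median of -0.42.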

How the data were processed

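RNA from 1 mm punches of the right aCC was sequenced as single-end reads on a BGISEQ-500, 1 library per mouse. Per the labels, the authors used FastQC, Trimmomatic, HISAT2 2.1.0 and StringTie 1.3.4 on GRCm38 with Ensembl gene models, and deposited TPM values per gene. Whether strand was used is not given in the sources used here. The 7 genes and all gene lists were chosen with earlier results of these data known. Ensembl IDs were matched to symbols for 52403 of 52636 genes. The deposited TPM summed to between 999727.1 and 999889.0 per library, 24685 to 25517 genes were above 0, mitochondrial genes took 21.7% to 30.5%, and 0 of 630 pairs of libraries were identical. TPM keep no depth, so no counting error or detection limit could be given.

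Groups came from the labels, which give no batch. A gene was kept if 8 or more libraries had 0.1 TPM or more of it, and log2(TPM + 0.5) was fitted with limma 3.58.1 (trend, R 4.3.3). Comparisons of 2 groups used only their own libraries, the pooled IMN fit had genotype as a term, and the interaction used all 4 groups. The authors tested counts, which were not used here. Single genes were tested by exact permutation, or by 100000 draws within genotype, with scipy 1.17.1. A list score is the mean log2(TPM + 0.5) of its genes. Correlations used values centred on group means. Promoters came from RefSeq (GRCm38.p6), where entries matched 4 of the 7 genes. Gene positions came from GENCODE vM21. Pathway genes were named at an unadjusted p under 0.01, and like genes were the 3 with the highest r. The fits were tested on simulated data. Alternatives covered pseudocount, filter, scaling, weights, covariates, replicate number and single libraries. Some genes of the lists are not reported here by name.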

Additional observations from a re-analysis of the deposited data

Results flagged for a closer look

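In 28 sets of values (7 genes in 4 groups), 3 held a mouse far from the rest of its group by Dixon's test at the 95% level, which chance alone gives in about 1 of 20 sets. Bdnf in WT vehicle replicate 1 was 8.74 TPM, where the other 7 WT vehicle mice lay between 26.2 and 30.3 TPM. Ntrk3 in the same library was 41.8 TPM, and the others lay between 60.9 and 74.3 TPM. Beside these values, this library had an immediate-early score of 5.01, rank 35 of 36, and an oligodendrocyte score of 7.96, rank 3 of 36. The part of either in its Bdnf and Ntrk3 values was not tested. Ngfr in WT vehicle replicate 7 was 0.690 TPM, where the others of that group lay between 0.112 and 0.265 TPM. No gene of the 7 gave a genotype by IMN interaction with an unadjusted limma p under 0.05, and the lowest was 0.399, for Sort1.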

How the results depend on the processing

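Of the 1450 differences of the 7 genes under an alternative, 159 turned sign by less than their standard error, and 1 turned further: Ntrk2 in the pooled IMN comparison was 0.09 with striatal and oligodendrocyte scores in the fit and -0.01 without. With array weights 1 of the 7 genes (Bdnf) passed the adjusted threshold in the pooled comparison. Leaving out 1 library gave 0 to 1 calls in WT mice and 0 to 1 in the pooled fit, and the 1 was Bdnf without WT vehicle replicate 1. By the permutation test, leaving out 1 library gave 0 to 2 genes in WT mice and 0 to 1 in Brd1+/- mice. That test gave 0 genes in Brd1+/- mice without mitochondrial genes and 1 (Bdnf) in the pooled comparison after quantile normalization, where Vgf was lost. Over the alternatives, the pooled difference ran from -0.59 to -0.38 for Bdnf (adjusted limma p 0.0212 to 0.199) and from -0.30 to -0.17 for Vgf (0.311 to 0.653). With single libraries left out they ran from -0.62 to -0.47 and from -0.30 to -0.22. Of the 5 genes with an r to the immediate-early score, 2 (Bdnf and Vgf) remained with the oligodendrocyte score removed. With the median of the list as the score, Ntf3 (0.23) and Ntrk2 (0.32) were lost and Sort1 (0.44) was gained. Ngfr has a mean under 1 TPM and could not be tested where that minimum was set. The causes of these shifts were not tested.

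The replicate numbers gave little sign of pairing in expression: same-numbered libraries had an r between -0.263 and 0.262. Between WT IMN and Brd1+/- IMN, 1 of 9 such pairs was the best match for its own number. A pairing that left no mark on expression would not be seen this way. With the replicate number as a block, 0 of the 7 genes passed in any comparison, and Bdnf was -0.70 in WT mice (adjusted limma p = 0.551), -0.49 in Brd1+/- mice (0.932) and -0.58 in the pooled fit (0.125). Over all genes the pooled calls were 70 as fitted, 37 with the block and 191 with array weights, and in Brd1+/- mice 2 became 0 with the block. With array weights the genes at an unadjusted p under 0.05 went from 1687 to 2721 in WT mice, from 959 to 1621 between genotypes with vehicle and from 818 to 1267 for the interaction. In WT mice 518 genes were higher and 1169 lower as deposited, and 863 and 957 after quantile normalization. Depth is not recorded in TPM, so the wide intervals of Ntf3 and Ngfr could not be divided into counting error and differences between mice.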
